A study of Mus musculus with 12 samples.

Results

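The genes described are 10 members of the circadian clock and its direct output: Arntl, Clock, Per1, Per2, Per3, Ciart, Nr1d1, Nr1d2, Dbp and Tef. They were chosen by gene name, as the rows that carry one of these names in both deposited tables, and they are 10 of 48526 genes. RNA was measured in the cortex of untreated C57Bl/6 mice, with 3 biological replicates in each of 4 groups: 3-month and 10-month animals labelled non-transgenic controls, and 3-month and 10-month animals labelled TAU58/2 transgenic. TAU58/2 mice carry human tau with the P301S mutation of inherited frontotemporal dementia, driven by a Thy1 promoter that is active in neurons, so the transgene acts mainly in neurons while the measurement covers all cells of the tissue. All animals were kept under alternating light and dark of 12 hours each, and the time of day at which tissue was taken is not recorded in the labels.

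The clock is a feedback loop of transcription that runs with a period of about a day in nearly every cell. The proteins of Arntl (also called Bmal1) and Clock pair up and switch on genes that carry E-boxes, among them the Per genes, Ciart, Nr1d1, Nr1d2, Dbp and Tef. The PER proteins and CIART then repress that pair, the NR1D proteins (REV-ERBs) repress Arntl through ROR elements, and DBP and TEF switch on further genes through D-boxes. In cortex, as in other tissues, transcripts of Arntl are known to peak at about the opposite time of day to those of Dbp, Nr1d1 and the Per genes, so that the level in 1 animal depends on when it was sampled.

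Values are FPKM, fragments scaled to transcript length and library size, and the libraries summed to between 125933 and 158077 FPKM. The absolute depth is unknown. A check of the labels gave an uneven answer. Mapt, the mouse gene of tau, lay between 6.64 and 12.0 FPKM in 3-month controls and between 43.3 and 47.6 in 3-month transgenics. At 10 months it was 42.7, 8.13 and 9.08 FPKM in the libraries labelled control 1 to 3 and 42.6, 12.4 and 3.31 in those labelled transgenic 1 to 3. Control 1 was thus near the 3-month transgenic range, transgenic 2 near the 3-month control range and transgenic 3 below it. Thy1 was between 105 and 140 FPKM in 3-month controls and between 410 and 441 in 3-month transgenics. At 10 months it was 115, 314 and 176 FPKM in controls 1 to 3 and 172, 114 and 159 in transgenics 1 to 3, so that it pointed to other libraries than Mapt did: control 1 lay in the 3-month control range of Thy1, control 2 was the highest, and no transgenic library reached the 3-month transgenic range. The 10-month groups are therefore called by their labels. The limma fold changes of single genes that involve them are also given without the 3 libraries whose Mapt disagreed, which keeps transgenic 1 and controls 2 and 3. Cortical excitatory neuron markers were present throughout; the 6 genes summed to between 130 and 297 FPKM in 3-month controls, 236 and 270 in 3-month transgenics, 258 and 274 in 10-month controls and 156 and 224 in 10-month transgenics, the last below both of the groups it is compared with. The 4 blood markers summed to between 14.9 and 25.1 FPKM in 3-month controls and between 35.4 and 142 in 3-month transgenics, without overlap. The 4 choroid plexus markers ran from 5.24 to 729 FPKM within 3-month controls. Of 5 transcripts typical of the suprachiasmatic nucleus and other hypothalamus, Nms was at 0 in every library. Vip, which cortical interneurons also make, gave most of the sum of 6.41 to 26.9 FPKM. The highest sum was in 3-month transgenic 2, where Vip had 13.8, Avp 7.75 and Oxt 5.29 FPKM. The pituitary transcripts Gh and Prl had 37.4 and 10.0 FPKM there. That library was also the highest in Per1, Tef and Ciart and was at 0 in Per3. The part of other tissue in its clock gene values was not tested. The library labelled 10-month transgenic 1 stood apart in pituitary transcripts: the 5 markers summed to 13416 FPKM there, and to at most 53.8 FPKM in the 3-month groups and 19.5 in the 10-month controls. That library is also the only 10-month transgenic kept where the 3 libraries whose Mapt disagreed are left out. The part of pituitary tissue in the values of that setting was not tested.

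Averaged over the 12 libraries, the clock genes ranked from Nr1d1 (26.0 FPKM) through Dbp (19.9), Nr1d2 (19.0), Tef (16.0), Per1 (10.4), Ciart (6.65), Per2 (4.84), Arntl (2.15) and Per3 (0.900) to Clock (0.237). Each neighbour in this order overlapped the next in its range over libraries, so no step between neighbours exceeded the spread. The REV-ERB genes had the smallest spread: the standard deviation between libraries of a group, on the log2(FPKM + 0.1) scale, was 0.16 for Nr1d2 and 0.28 for Nr1d1. Arntl followed at 0.36 and Ciart at 0.46, and the median over the 9846 genes tested was 0.73. Dbp (1.05), Per1 (1.14), Tef (1.14), Per3 (1.38), Clock (1.64) and Per2 (2.06) were above that median. This spread depends on the level of a gene. Among tested genes within 2-fold of the same mean FPKM, 6.84% had a smaller spread than Nr1d2, 13.6% than Arntl, 28.6% than Nr1d1, 40.7% than Ciart and 45.6% than Per3, and between 79.8% and 88.1% than Per1, Dbp, Tef and Per2. In 4 of the 9 clock genes that entered the test at least 1 library lay under an eighth of the gene's own median, against 31.7% of all genes tested.

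**Figure D1:**
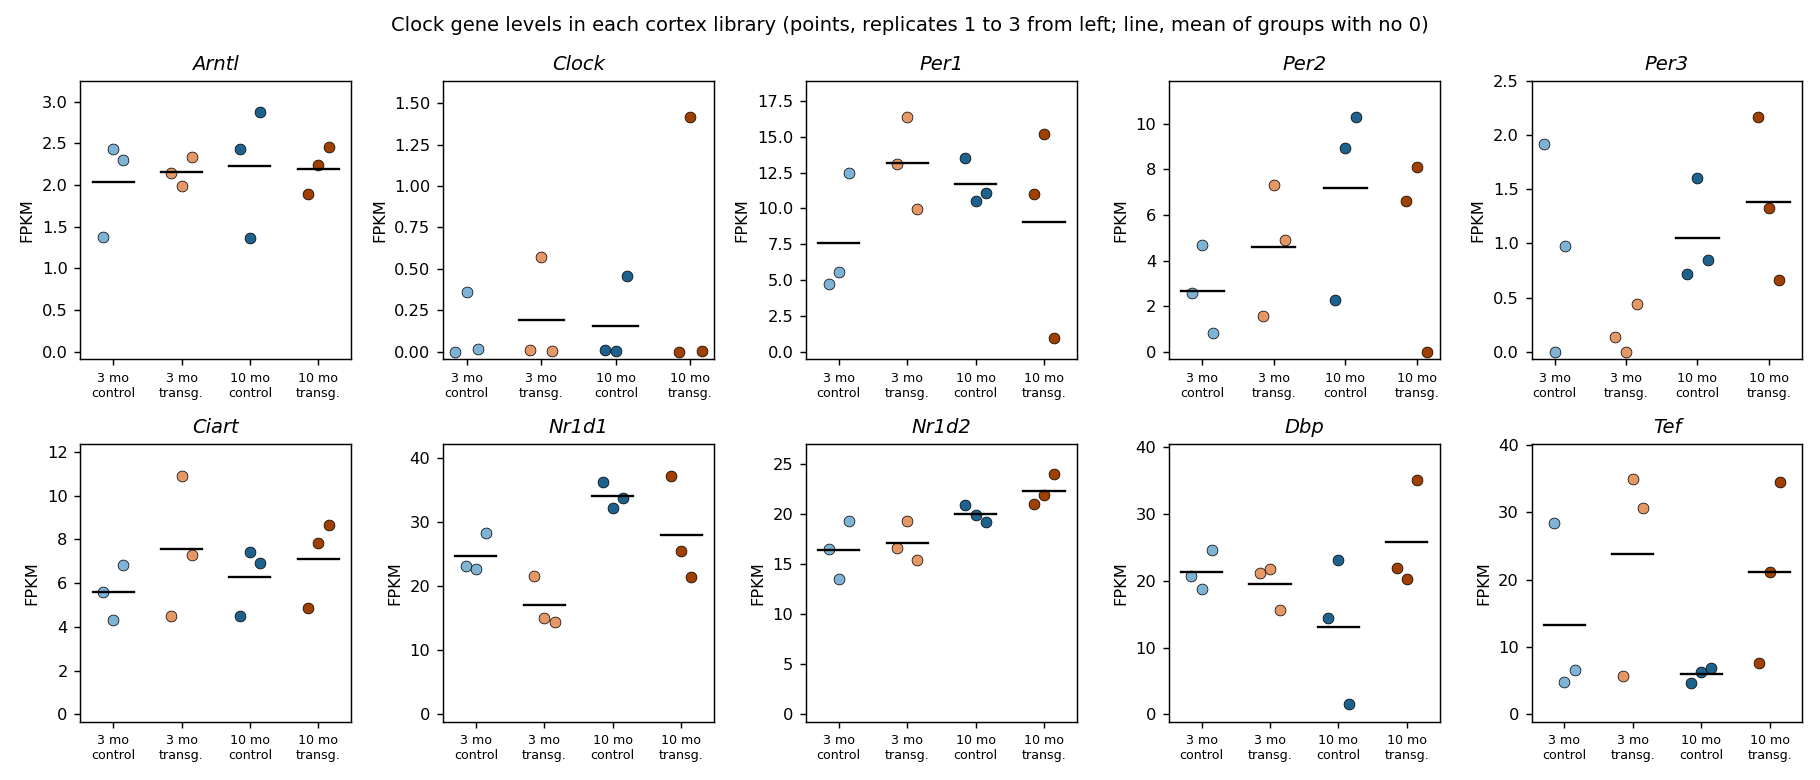
FPKM of each clock gene in each of the 12 libraries, by group (3 libraries each, replicates 1 to 3 from left); the line is the mean of a group in which no library is at 0. Nr1d1 and Nr1d2 vary little within groups, Tef splits into a lower and an upper set of libraries, and Dbp and Per1 each have a single library far below the rest.

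The promoter windows of RefSeq (GRCm38.p6, gene strand, around the annotated starts) were searched on both strands for the E-box CACGTG, a variant E-box CACGTT, the D-box TTANGTAA, the ROR element AGTAGGTNA and the cAMP response element TGACGTCA; in the windows of the clock genes no match overlapped a match of another motif. The table held windows for 9 of the 10 genes, all except Per2. Over all 32851 windows of the same length, 7.15% held the E-box, 4.68% the variant, 2.32% the D-box, 0.591% the ROR element and 1.79% the cAMP response element. These matches describe letters in a window and do not show that a factor binds. None of the motifs was found in the windows of Dbp, Nr1d2 or Clock or at the second Per1 start, and Nr1d1 held the variant E-box at position -28 from its start, on the opposite strand.

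**Figure D2:**
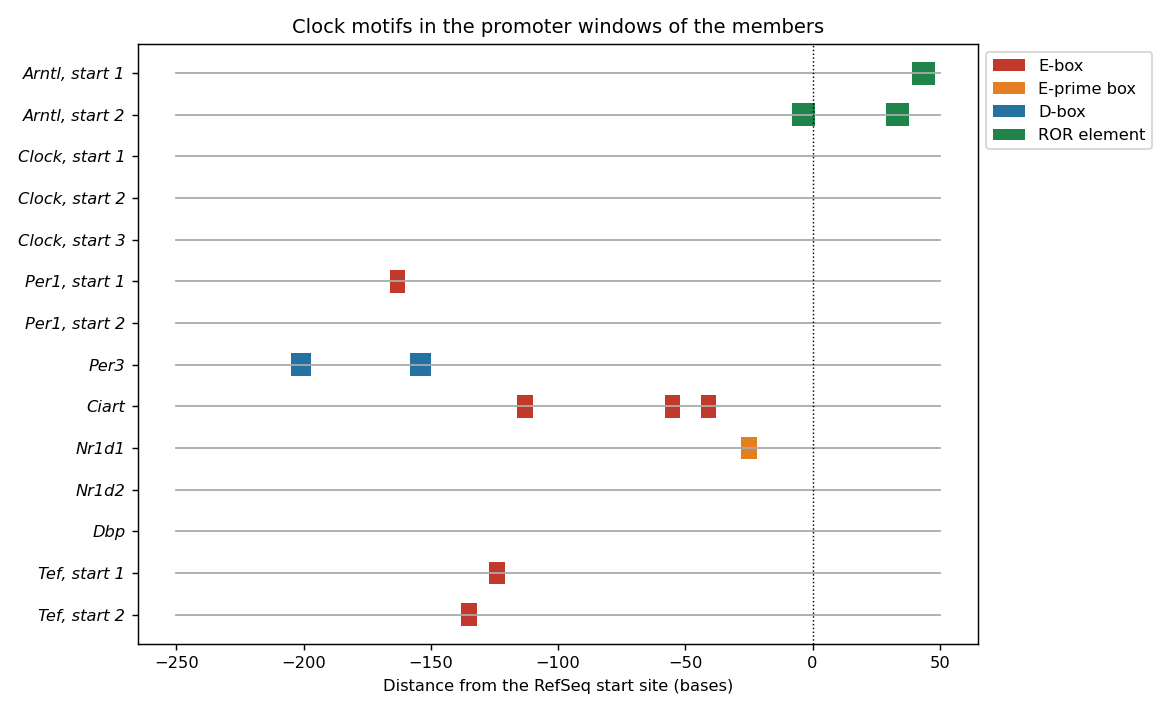
Position of the searched motifs in the RefSeq promoter window of each clock gene with a window, in bases from the start site (dotted line); each grey line is a window and genes with several starts have several. Ciart holds 3 E-boxes and Per3 a pair of D-boxes, while the windows of Dbp, Nr1d2 and Clock hold none of the motifs.

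Among the activators, Arntl was low and even, and Clock was close to the limit of what was listed. Arntl (chr7:113207465-113314126, plus strand; positions of genes are from the GENCODE annotation of GRCm38) encodes the partner of CLOCK whose transcript cycles. Its values were 1.37, 2.43 and 2.30 FPKM in 3-month controls, 2.15, 1.99 and 2.34 in 3-month transgenics, 2.43, 1.36 and 2.88 in 10-month controls and 1.90, 2.24 and 2.45 in 10-month transgenics. The ranges of all 4 groups overlapped, and every library lay between 1.36 and 2.88 FPKM. Arntl is a member that REV-ERBs repress, and both of its annotated starts lie near matches of the searched ROR element, shown here in capitals.
Arntl, chr7:113207493-113207521: ttggtcggaaAGTAGGTTAgtggtgcgac
Arntl, chr7:113207529-113207557: gaaggcagaaAGTAGGTCAgggacggagg
Counted from the second start, these elements begin at positions -8 and 29.

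Clock (chr5:76209868-76304792, minus strand) encodes the other partner of the activating pair. It was listed at 0, 0.359 and 0.0166 FPKM in 3-month controls and at 0.00847, 0.570 and 0.00196 in 3-month transgenics. At 10 months it was 0.00964, 0.00372 and 0.457 FPKM in libraries labelled control and 0, 1.42 and 0.00380 in those labelled transgenic. Thus 1 library in each group stood well above the others, and the other 8 were near or at 0. Clock did not reach a mean of 1 FPKM in any group and was not tested. A listed 0 may be a failed estimate. No mean is given for groups that contain one, apart from Per3 at 3 months, where its entry into the test is explained.

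The Period genes, which encode the repressors of the pair, were expressed in the order Per1, Per2, Per3 and varied widely between animals. Per1 (chr11:69095217-69109960, plus strand), which is also known to respond to light and neuronal activity, had 4.72, 5.58 and 12.5 FPKM in 3-month controls and 13.1, 16.4 and 9.96 in 3-month transgenics. At 10 months it had 13.5, 10.5 and 11.1 FPKM in libraries labelled control and 11.0, 15.2 and 0.956 in those labelled transgenic. Apart from 10-month transgenic 3, every library lay between 4.72 and 16.4 FPKM, and the groups overlapped in each comparison. Per1 carried 1 E-box in the window of its first RefSeq start, beginning at position -166.
Per1, chr11:69098771-69098800: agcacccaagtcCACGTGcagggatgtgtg

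Per2 (chr1:91415982-91459324, minus strand) had 2.57, 4.66 and 0.798 FPKM in 3-month controls and 1.58, 7.32 and 4.90 in 3-month transgenics. It had 2.26, 8.94 and 10.3 FPKM in 10-month controls and 6.62, 8.12 and 0 in 10-month transgenics. Its listed 0 was in 10-month transgenic 3, the library that was also lowest in Per1. Per3 (chr4:151003652-151044665, minus strand), the least abundant Period gene, had 1.92, 0 and 0.976 FPKM in 3-month controls and 0.133, 0 and 0.444 in 3-month transgenics. At 10 months it had 0.716, 1.60 and 0.847 FPKM in libraries labelled control and 2.17, 1.33 and 0.667 in those labelled transgenic. Every 10-month transgenic library was therefore above every 3-month transgenic one. The annotation places Per3 inside Camta1 on the same strand (0.434 to 5.72 FPKM), so reads of either gene could have been assigned to the other. Per3 was the only member whose window held D-boxes, 2 in number, and 0.0822% of all windows held at least 2.
Per3, chr4:151044804-151044882, minus strand: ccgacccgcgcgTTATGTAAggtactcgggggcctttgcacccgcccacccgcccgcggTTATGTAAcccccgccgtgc

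Ciart (chr3:95878503-95882251, minus strand) encodes a further repressor of the pair. Its levels were 5.62, 4.32 and 6.81 FPKM in 3-month controls, 4.51, 10.9 and 7.30 in 3-month transgenics, 4.52, 7.44 and 6.94 in 10-month controls and 4.86, 7.83 and 8.67 in 10-month transgenics. The lowest value of each group lay between 4.32 and 4.86 FPKM and the highest between 6.81 and 10.9, and none stood apart. Its window held 3 E-boxes upstream of the start, in capitals here; at least 3 were found in 0.0883% of all windows.
Ciart, chr3:95882255-95882356, minus strand: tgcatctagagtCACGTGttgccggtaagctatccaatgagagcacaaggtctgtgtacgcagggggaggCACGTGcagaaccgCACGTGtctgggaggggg

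The REV-ERB genes, nuclear receptors that repress Arntl, had higher means at 10 than at 3 months under both labels, without passing the test described further on. Nr1d1 (chr11:98767932-98775333, minus strand) had 23.2, 22.7 and 28.3 FPKM in 3-month controls and 21.6, 15.1 and 14.5 in 3-month transgenics. It had 36.3, 32.3 and 33.8 FPKM in 10-month controls and 37.3, 25.5 and 21.4 in 10-month transgenics. The 10-month controls were all above the 3-month controls, and the 3-month transgenics were all below the 3-month controls. Nr1d2 (chr14:18204054-18239127, minus strand) had 16.5, 13.6 and 19.3 FPKM in 3-month controls and 16.6, 19.3 and 15.5 in 3-month transgenics. It had 20.9, 19.9 and 19.2 FPKM in 10-month controls and 20.9, 21.9 and 24.0 in 10-month transgenics, all 3 of the latter above all 3-month transgenics.

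The clock-driven activators Dbp and Tef are PAR bZIP factors that bind D-boxes. Dbp (chr7:45705088-45710203, plus strand), a classical direct target of the activating pair, had 20.7, 18.8 and 24.6 FPKM in 3-month controls, 21.1, 21.7 and 15.7 in 3-month transgenics, 14.4, 23.2 and 1.54 in 10-month controls and 22.0, 20.3 and 35.2 in 10-month transgenics. All but 2 libraries lay between 14.4 and 24.6 FPKM: 10-month control 3 was far below and 10-month transgenic 3 above. Tef (chr15:81802421-81826863, plus strand) had 28.4, 4.83 and 6.60 FPKM in 3-month controls, 5.65, 35.0 and 30.6 in 3-month transgenics, 4.70, 6.26 and 6.93 in 10-month controls and 7.66, 21.1 and 34.4 in 10-month transgenics. Its values fell into separate sets, 7 libraries from 4.70 to 7.66 FPKM and 5 from 21.1 to 35.0, and every group except the 10-month controls had libraries in both. Both RefSeq starts of Tef had an E-box, beginning at positions -127 and -138.
Tef, first start, chr15:81802534-81802563: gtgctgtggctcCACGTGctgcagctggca
Tef, second start, chr15:81811264-81811293: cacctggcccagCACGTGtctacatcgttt

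No clock gene passed the threshold in any comparison. The log2(FPKM + 0.1) values were fitted with limma over all 12 libraries, Benjamini-Hochberg adjustment ran over the 9846 genes that averaged 1 FPKM or more in some group, and 0.05 was the threshold; 9 of the 10 clock genes were tested, all but Clock. At 3 months, 6 of the 9 were higher in transgenics and 3 lower, with a median log2 fold change of 0.12 against 0.02 over all genes tested. The adjusted p was under 0.05 for 0.0406% of all genes and for 0 clock genes. An unadjusted p under 0.05 was reached by 3.39% of all genes and by 1 clock gene, Nr1d1, and the groups did not overlap for 7.98% of genes and again for Nr1d1 alone. Nr1d1 averaged 17.0 ± 3.97 FPKM (SD, n = 3) in 3-month transgenics and 24.7 ± 3.13 (SD, n = 3) in controls. Its log2 fold change was -0.55 (SE 0.24), with an unadjusted p of 0.0408 and an adjusted p of 1.00 in limma, and the two-sided exact permutation p was 0.1, the smallest that 3 against 3 allows. The blood markers differed between the same groups in the opposite direction, and their part in this value was not tested. In the authors' deposited table the fold change of Nr1d1 was 0.721, with p = 0.127 and q = 0.904.

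At 10 months, 6 of the 9 genes were again higher in the transgenic label and 3 lower, with a median log2 fold change of 0.15 against 0.01 over all genes. The share of genes past the adjusted threshold was 0.0102%, 4.40% had an unadjusted p under 0.05, and the groups did not overlap in 8.26%. Of the clock genes, 0 had an unadjusted p under 0.05 and 2 did not overlap, Nr1d2 and Tef. Nr1d2 averaged 22.3 ± 1.58 FPKM (SD, n = 3) in the transgenic label and 20.0 ± 0.856 (SD, n = 3) in the control label, a log2 difference of 0.15 (SE 0.17; adjusted limma p = 0.969; exact permutation p = 0.1); it was 0.10 without transgenic 3 as well as without the 3 libraries whose Mapt disagreed. Tef averaged 21.1 ± 13.4 FPKM (SD, n = 3) against 5.96 ± 1.14 (SD, n = 3), a log2 difference of 1.57 (SE 0.85; unadjusted limma p = 0.0927, adjusted p = 0.969; exact permutation p = 0.1). Without the 3 libraries whose Mapt disagreed, which leaves transgenic 1 alone against controls 2 and 3, the Tef value was 0.21. The sum of the excitatory neuron markers was lower in the transgenic label in the same comparison. This held for the sum and not for each gene. Slc17a7, which gave most of the sum, overlapped, with 193, 98.2 and 211 FPKM in transgenics and 230, 207 and 205 in controls. The part of these markers in the values of Nr1d2 and Tef was not tested. The authors' deposited table gives Tef a fold change of 2.19 with p = 0.0236 and q = 0.854.

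Dbp had the smallest p of the clock genes at 10 months, with overlapping groups. It averaged 25.8 ± 8.13 FPKM (SD, n = 3) in the transgenic label and 13.0 ± 10.9 (SD, n = 3) in the control label. The log2 fold change was 1.62 (SE 0.78), with an unadjusted p of 0.0656 and an adjusted p of 0.969 in limma and an exact permutation p of 0.3. Without 10-month control 3, where Dbp was 1.54 FPKM, the log2 fold change was 0.45. Without the 3 libraries whose Mapt disagreed it was 1.84. That setting leaves transgenic 1 alone, at 22.0 FPKM, against controls 2 and 3, at 23.2 and 1.54 FPKM. Transgenic 1 thus lay between the controls kept, and the value rests on control 3.

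No clock gene passed the interaction test in limma, which asks whether the genotype effect differed between the ages. An adjusted p under 0.05 was found for 0.0508% of all genes and an unadjusted p under 0.05 for 3.32%, and both counts were 0 for the clock genes. In the interaction 5 of them were positive and 4 negative, and 4 and 5 without the 3 libraries whose Mapt disagreed. Per1 had the smallest p, with an interaction of -1.95 on the log2 scale (SE 1.19; limma unadjusted p = 0.134, adjusted p = 0.987). It was -0.74 without 10-month transgenic 3, the library with 0.956 FPKM, and -0.86 without the 3 libraries whose Mapt disagreed. Averaged over both ages, a contrast added after the data were seen, transgenic minus control called 0.0508% of all genes, 3.75% had an unadjusted p under 0.05 and 0.173% did not overlap. Of the clock genes 0 were called, 0 did not overlap, and 1 had an unadjusted p under 0.05. That gene was Nr1d1, with a log2 difference of -0.44 (SE 0.17; limma unadjusted p = 0.0255, adjusted p = 0.975; exact permutation p = 0.102 for 6 against 6), which was -0.19 without the 3 libraries whose Mapt disagreed.

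**Figure D3:**
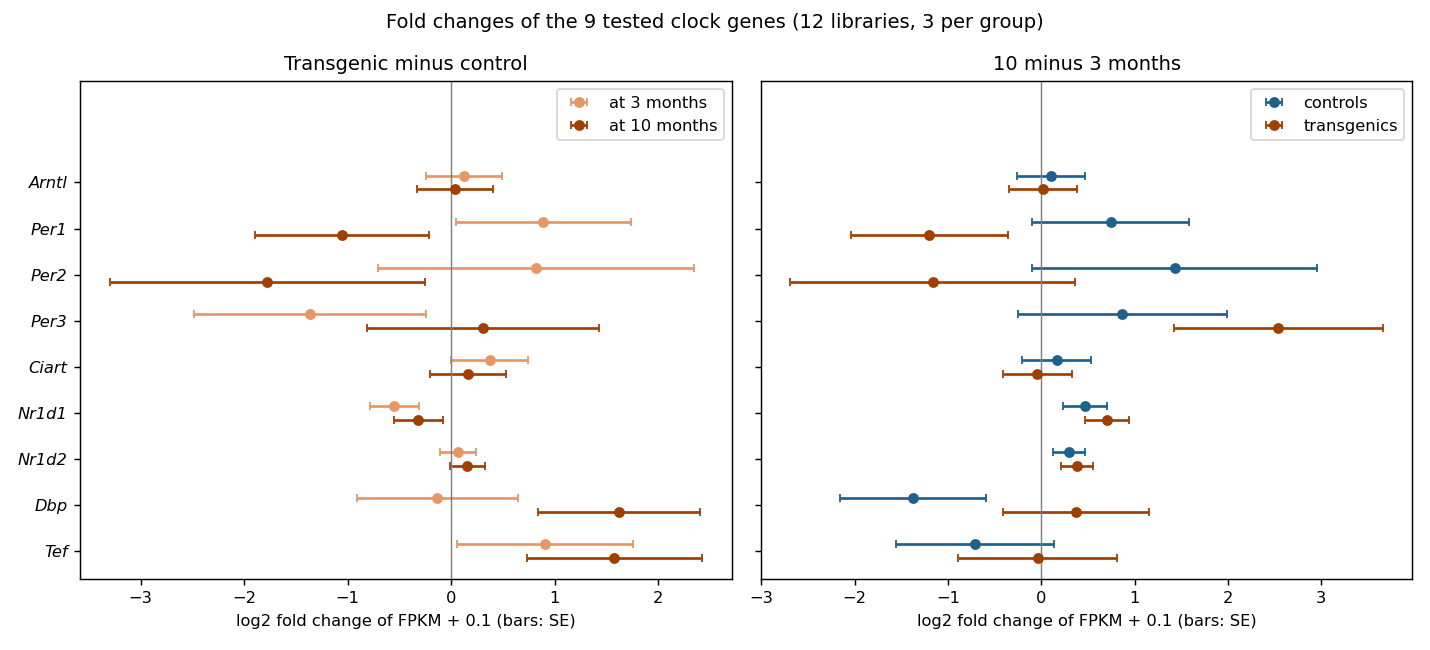
Log2 fold change of the 9 tested clock genes, transgenic minus control at each age (left) and 10 minus 3 months in each genotype label (right); points are limma estimates and bars their SE, from 12 libraries. The REV-ERB genes have the shortest bars and lie right of 0 in both age comparisons, while the Period genes, Dbp and Tef have bars of about 0.8 log2 units or more.

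Age was compared within each label. Each age has its own deposited table, so age and table cannot be told apart, and neither can age and time of sampling. In controls, 7 of the 9 genes were higher at 10 months and 2 lower, with a median of 0.29 against 0.06 over all genes. The share of all genes with an adjusted p under 0.05 was 0.0305%, 4.19% had an unadjusted p under 0.05 and 10.1% did not overlap. The clock genes gave 0, 0 and 1, the last being Nr1d1, with 34.1 ± 2.01 FPKM (SD, n = 3) at 10 months and a log2 difference of 0.47 (SE 0.24; limma unadjusted p = 0.0745, adjusted p = 0.994; exact permutation p = 0.1), which was 0.42 without the 3 libraries whose Mapt disagreed. In the transgenic label, 5 genes were higher and 4 lower, with a median of 0.02 against 0.05 over all genes, while scaling by size factors gave 4 higher and 5 lower, with a median of -0.03. There, 0.0203% of genes were called, 4.31% had an unadjusted p under 0.05 and 9.43% did not overlap, and the clock genes gave 0, 3 and 2. Per3 is among both the 3 and the 2, but it entered the test only through its 10-month means. Its part in these counts is therefore not to be set against the shares of all genes.

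The 3 with an unadjusted p under 0.05 in the transgenic label were Nr1d1, Nr1d2 and Per3; with size factors, with the replicate number as a block and without the 3 libraries whose Mapt disagreed, Nr1d1 alone was under 0.05, and without transgenic 1 there were 0. Nr1d1 averaged 28.1 ± 8.26 FPKM (SD, n = 3) at 10 months, with overlapping groups and a log2 difference of 0.70 (SE 0.24; limma unadjusted p = 0.0138, adjusted p = 0.974; exact permutation p = 0.2). Its highest value was in transgenic 1, the library with pituitary transcripts, and the fold change was 0.48 without that library; the part of the other tissue in it was not tested further. Without the 3 libraries whose Mapt disagreed, only transgenic 1 remains at 10 months, and the value was 1.15 (limma adjusted p = 0.216). Nr1d2 did not overlap between the ages, with 17.1 ± 1.95 FPKM (SD, n = 3) at 3 months and a log2 difference of 0.38 (SE 0.17; limma unadjusted p = 0.0491, adjusted p = 0.974; exact permutation p = 0.1). It was 0.30 without the 3 libraries whose Mapt disagreed, and the unadjusted p was 0.0777 with the replicate block and 0.0684 with size factors in limma. The sum of the excitatory neuron markers, lower at 10 months in the transgenic label, did not overlap between these groups either. This held for the sum and not for each gene. Slc17a7, which gave most of the sum, overlapped, with 208, 199 and 233 FPKM at 3 months and 193, 98.2 and 211 at 10 months. The part of these markers was not tested. Per3 did not overlap between the ages, but it entered the test through its 10-month means of 1.05 and 1.39 FPKM, against 0.965 and 0.192 at 3 months, so its difference with age is given as a description only. It was 2.54 on the log2 scale, 0.97 with a pseudocount of 1, since 1 of its 3-month values is 0, and 3.28 without the 3 libraries whose Mapt disagreed.

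Averaged over both labels, a contrast likewise added after the data were seen, the REV-ERB genes were the 2 clock genes with an unadjusted p under 0.05. Over all genes 4.40% reached that level, 0.0813% had an adjusted p under 0.05 and 0.366% did not overlap; for the clock genes the last 2 counts were 0. Nr1d1 averaged 31.1 FPKM in the 6 libraries of 10 months and 20.9 in the 6 of 3 months, a log2 difference of 0.58 (SE 0.17; limma unadjusted p = 0.00559, adjusted p = 0.935; exact permutation p = 0.0195). Nr1d2 averaged 21.1 and 16.8 FPKM, a log2 difference of 0.34 (SE 0.12; limma unadjusted p = 0.0188, adjusted p = 0.935; exact permutation p = 0.00649). Without 10-month transgenic 1 these were 0.47 and 0.36. Without the 3 libraries whose Mapt disagreed they were 0.79 and 0.28, and Nr1d1 alone had an unadjusted p under 0.05. These permutation p-values were taken for genes picked from the same values and are not adjusted for that. Nr1d1 shares 1075 bases at its end with Thra, a thyroid hormone receptor gene on the opposite strand. Thra was more abundant, at 61.3 to 103 FPKM, and its own log2 fold change with age over both labels was 0.16 (SE 0.13; limma adjusted p = 0.936), or 0.13 without the 3 libraries whose Mapt disagreed. The library kit keeps strand, but whether the counting used it is not given. As these are bulk libraries, fewer cells of a type and less RNA per cell cannot be told apart.

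Other genes of the clock gave no calls either. Of 10 further core clock genes 6 were tested and 0 passed in any of the 7 contrasts in limma; at an unadjusted p under 0.05 there were 0 in either genotype contrast by age and 1, Cry1, with age over both labels, where 4.40% of all genes reached that level. At 10 months 5 of these 6 were lower in the transgenic label, with a median log2 fold change of -0.55, and at 3 months 2 of 6 were, while a pseudocount of 1 made the first count 4 and size factors made the second 3. The median at 10 months was -0.28 with a pseudocount of 1 and -1.24 without the 3 libraries whose Mapt disagreed. The 2 with the smallest p for genotype were Npas2, a relative of Clock, at 3 months (-2.06, SE 1.75; limma adjusted p = 1.00) and Bhlhe41, a repressor, at 10 months (-0.78, SE 0.66; limma adjusted p = 0.969). Without the 3 libraries whose Mapt disagreed Bhlhe41 was at -2.61, which rests on transgenic 1 alone, at 1.01 FPKM. The transgenics left out, 2 and 3, had 6.28 and 9.06 FPKM. The controls kept, 2 and 3, had 4.77 and 9.40 FPKM. Cry1, the partner of the PER proteins, was picked after its values were seen. It had 2.08, 5.01 and 3.59 FPKM in 3-month controls, 4.18, 3.16 and 3.97 in 3-month transgenics, 5.45, 7.20 and 6.80 in 10-month controls and 6.84, 7.00 and 6.38 in 10-month transgenics. All 6 libraries of 10 months were above all 6 of 3 months, and 0.366% of all genes did not overlap in this contrast. The log2 difference was 0.88 (SE 0.22, limma unadjusted p = 0.00223, adjusted p = 0.812), and 0.95 without the 3 libraries whose Mapt disagreed. The exact permutation p was 0.00216, the smallest that 6 against 6 can give. It is not adjusted for the choice of the gene.

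The D-box repressor Nfil3 and Hlf, the third PAR bZIP factor, were both tested and not called by limma. Hlf differed by -0.95 at 10 months (SE 1.25; adjusted p = 0.972 in limma), and by -1.15 without the 3 libraries whose Mapt disagreed. For Nfil3 the transgenic libraries were above the controls at 3 months (0.70 on the log2 scale, SE 0.39; adjusted p = 1.00 in limma) and below them at 10 months (-0.82, SE 0.39; limma adjusted p = 0.969), without overlap at either age. Over all genes tested, 7.98% did not overlap at 3 months and 8.26% at 10 months. The gap of Nfil3 at 10 months was narrow, between 3.25 FPKM in transgenic 3 and 3.28 in control 2. The interaction for Nfil3 was -1.52 (SE 0.55, limma adjusted p = 0.987, unadjusted p = 0.0198). In that contrast 3.32% of all genes had an unadjusted p under 0.05. Without the 3 libraries whose Mapt disagreed the 10-month difference of Nfil3 was -1.21 and its interaction -1.90. Among 8 genes of clock protein turnover, 7 were tested and 0 called by limma, with 1 at an unadjusted p under 0.05 at 10 months, against 4.40% of all genes. At 10 months 6 of the 7 were lower in the transgenic label, with a median of -0.42, and without the 3 libraries whose Mapt disagreed 4 of the 7 were, with a median of -0.18. Btrc, a ubiquitin ligase subunit that marks PER proteins for degradation, had 5.47, 5.42 and 4.01 FPKM in 10-month transgenics and 9.45, 9.80 and 12.6 in 10-month controls. Its log2 fold change was -1.08 (SE 0.22; limma unadjusted p = 0.000682, adjusted p = 0.907; exact permutation p = 0.1), and -1.01 without the 3 libraries whose Mapt disagreed. Fbxw11, its paralog, was at -0.68 at 3 months (SE 0.34; limma adjusted p = 1.00).

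Of 10 output genes, all were tested and 0 called in any contrast by limma, with 1 at an unadjusted p under 0.05 at 3 months and 0 at 10 months, against 3.39% and 4.40% of all genes. Nampt at -1.03 at 3 months (SE 0.46; limma adjusted p = 1.00) and the cold-induced Rbm3 at 0.57 at 10 months (SE 0.27; limma adjusted p = 0.969) had the smallest p for genotype, and Rbm3 was at 0.42 without the 3 libraries whose Mapt disagreed. The 11 immediate early genes, which share activity-driven control with Per1, were all tested and 0 were called by limma in any contrast. Averaged over labels, in the contrast added after the data were seen, all 11 were lower at 10 months. Their median was -0.59 against 0.05 over all genes, and 1 had an unadjusted limma p under 0.05, against 4.40% of all genes. Within each label, 8 of the 11 were lower at 10 months and 3 higher. Junb and Ier2 were listed at 0 in several libraries. Of 9 glucocorticoid-responsive genes, a class that also includes Per1, 7 were tested and 0 called by limma; 6 of the 7 were higher at 10 months over both labels, with a median of 0.44, and 3 had an unadjusted p under 0.05 in that contrast, again against 4.40% of all genes. Without the 3 libraries whose Mapt disagreed, 5 of these 7 were higher and 2 had an unadjusted p under 0.05, and 10 of the 11 immediate early genes were lower. These are counts of direction without calls, and whether they bear on the age differences of the REV-ERB genes was not tested.

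No pair of clock genes passed the threshold for varying together. Over the 45 pairs, 0 had an adjusted permutation p under 0.05 by Pearson or by Spearman, with 4 and 3 pairs at an unadjusted p under 0.05. Tef and Clock each fell into separate sets of libraries, so no pooled coefficient is given for their pairs. Of the 28 remaining pairs, 10 had a positive r and 18 a negative one, from -0.45 to 0.74. Per1 and Per2 had the highest (r = 0.74, permutation p = 0.0333, adjusted p = 0.393; rho = 0.27, permutation p = 0.403, adjusted p = 0.871; n = 12). This rests on 10-month transgenic 3: r was 0.07 without that library and -0.08 without the 2 libraries farthest from the Per1 median. Within 3 months r was -0.08 and within 10 months 0.93, with 6 libraries each. Per3 and Nr1d1 came next (r = 0.61, permutation p = 0.0350, adjusted p = 0.393; rho = 0.68, permutation p = 0.0171, adjusted p = 0.384; n = 12). For that pair r was 0.51 without the 2 farthest libraries, 0.40 within 3 months, 0.38 within 10 months and 0.26 on deviations from the group means.

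**Figure D4:**
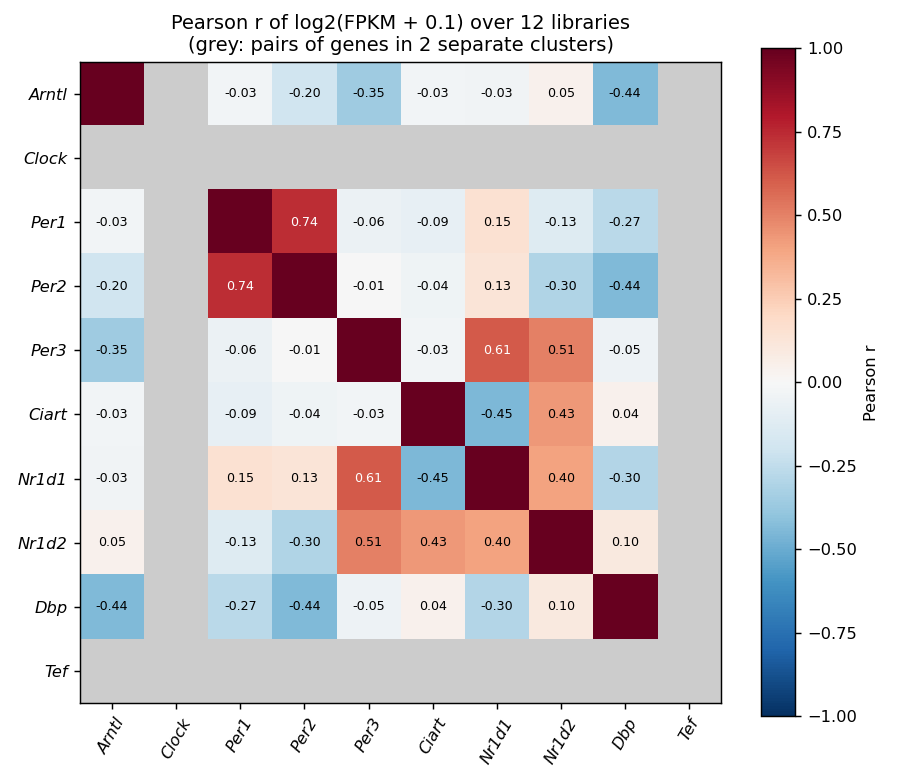
Pearson r of log2(FPKM + 0.1) between clock genes over 12 libraries, with rows and columns ordered by role; grey cells are pairs with Tef or Clock, whose values fall into separate sets. The highest value is 0.74 for Per1 with Per2 and the lowest -0.45 for Nr1d1 with Ciart; 0 of the 45 pairs passed the threshold.

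Arntl, whose transcript is known to run opposite to the others, had r = -0.44 with Dbp, -0.35 with Per3 and -0.20 with Per2. It had r = -0.03 with each of Per1, Nr1d1 and Ciart and 0.05 with Nr1d2. The adjusted permutation p over the pairs was at least 0.746 for these, n = 12. With Dbp, r was -0.10 when 10-month control 3 was left out. The paralogs Nr1d1 and Nr1d2 had r = 0.40 over all libraries, and 0.00 on deviations from the group means (permutation p of the first 0.196, adjusted p = 0.746). Within the 7 libraries of the lower Tef set, Tef had its highest r with Per3 (0.70; exact permutation p = 0.0794, adjusted over 9 pairs p = 0.714) and 0.56 with Ciart (exact permutation p = 0.195, adjusted p = 0.715). The upper set holds 5 libraries, too few for a coefficient.

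**Figure D5:**
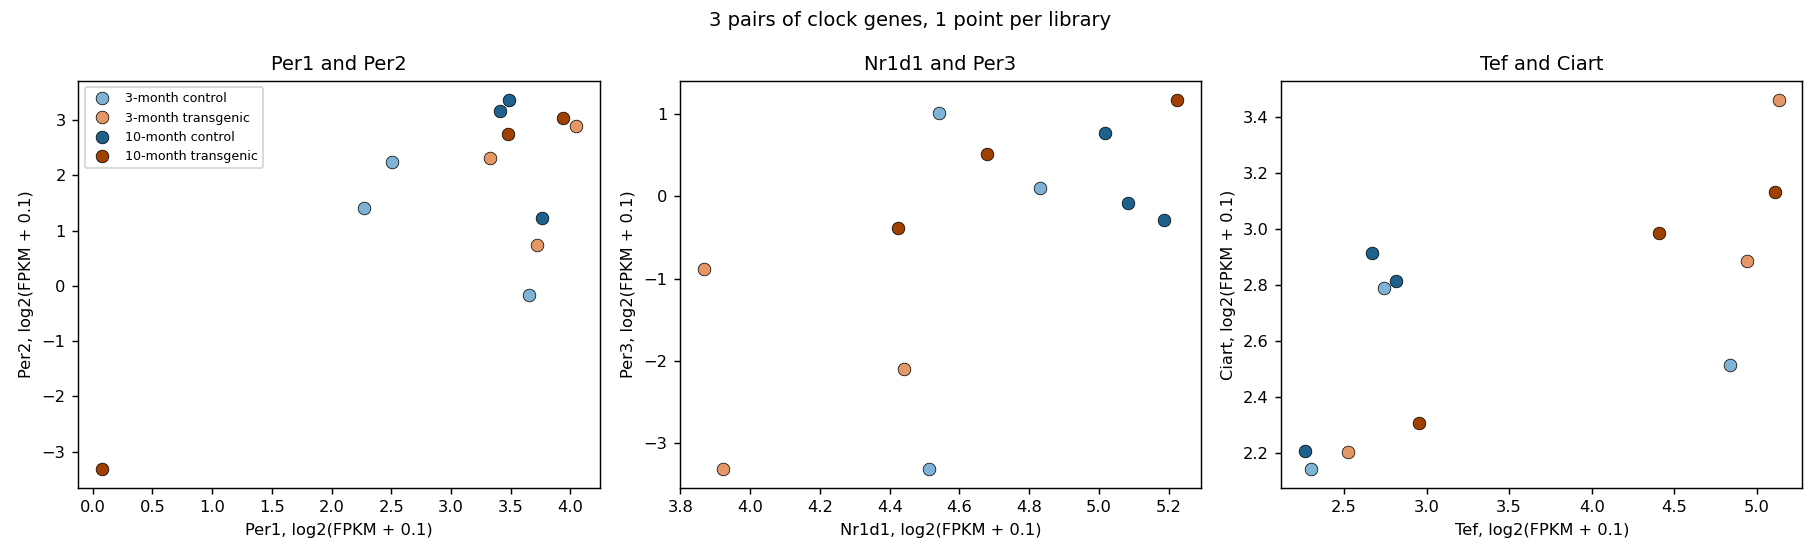
Log2(FPKM + 0.1) of 3 pairs of clock genes, 1 point per library and coloured by group. The Per1 and Per2 pair is set by 10-month transgenic 3 at the lower left, Per3 and Nr1d1 are both higher in most 10-month libraries, and Tef splits into 7 lower and 5 upper libraries.

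For none of the 9 tested clock genes was another clock gene the most similar gene across these libraries. Ranked by r among the other 9845 tested genes, the nearest were Tef and Ciart, with Ciart at place 31 for Tef and Tef at place 25 for Ciart, although the separate sets of Tef leave its coefficient without a reading. Per2 was at place 300 for Per1, Nr1d1 at place 154 for Per3 and Per3 at place 177 for Nr1d1. The median absolute r between tested members was 0.18, and between a member and any other tested gene it was 0.23. The 5 genes most like Dbp were 3010026O09Rik, Selenbp1, Haus7, Igfbp4 and Rtn4r, with r from 0.96 to 0.98 over 12 libraries. All 5, like Dbp, had their lowest value in 10-month control 3: 3010026O09Rik, Selenbp1 and Haus7 were listed there at 0, Igfbp4 at 0.708 and Rtn4r at 0.825 FPKM. In 10-month transgenic 3, where Dbp was highest, Selenbp1 had 4.24 and Haus7 5.83 FPKM, the highest value of each. There 3010026O09Rik had 2.28, Igfbp4 22.1 and Rtn4r 66.4 FPKM. Their highest values, 2.69, 23.4 and 66.9 FPKM, were in other libraries. The r of these genes with Dbp was not computed without 10-month control 3.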

How the data were processed

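Cortex RNA of 12 mice, 3 per age and genotype label, was measured with strand-specific libraries depleted of ribosomal RNA, per the labels' protocols. The authors deposited FPKM of each gene in each library, with a separate table for each age. Per the submitters' processing notes, HISAT2 2.0.4, StringTie 1.3.0, SAMtools and R 3.4.2 were used with builds mm10 and GRCm38; their order, options and annotation were not given. The authors' tables also hold a fold change (a ratio), its log2 value, p-values and q-values, per the file headers; the test behind them is not stated. No counts were used, so no counting interval is given.

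The scale of analysis was log2(FPKM + 0.1). The 9846 genes that averaged 1 FPKM or more in some group were fitted with limma 3.58.1 in R 4.3.3 (group means, eBayes with trend and robust). Both tables entered the same fit. P-values were adjusted by Benjamini-Hochberg over those genes. This scale understates changes of low genes. Correlations used 100000 resamples, or all orders for 6 or 7 libraries. The scripts were tested on simulated data. Same-numbered libraries of different groups did not deviate together (r from -0.12 to 0.09 over 18 pairs).

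The members, lists and tests were chosen with earlier results of these data known. A fold change is printed for a member where its unadjusted p was under 0.05, where groups did not overlap, or where its p was the smallest of a contrast; of other lists, up to 2 genes with the smallest p for genotype. Nfil3 at both ages, Hlf, Thra and Cry1 are outside that rule or beside it. Gm129, an older name of Ciart, was left out of the output list and Rorb out of the hypothalamic markers. Alternatives were a pseudocount of 1, no filter beyond 3 libraries above 0, size factors, the replicate number as a block, values under an eighth of the gene median set to missing, and each library left out; leaving out 3 libraries for Mapt, and the averaged contrasts, were added after seeing the data.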

Additional observations from a re-analysis of the deposited data

How the results depend on the processing

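No clock gene passed the threshold under any of the 18 alternatives, whose smallest adjusted p in limma was 0.216 (Nr1d1, age in the transgenic label, without the 3 libraries whose Mapt disagreed). The 12 printed fold changes of members kept their sign in all 216 alternative values. Among them is Per3 with age in the transgenic label, which is given as a description only. The count of correlated pairs stayed at 0 in all of its alternatives. The counts over all genes tested were small and moved. The main counts were 1 (genotype at 10 months), 4 (genotype at 3 months), 5 (interaction), 3 (age in controls), 2 (age in transgenics), 8 (age averaged) and 5 (genotype averaged). Without the filter they were 2, 9, 9, 7 and 7 for the first 5 and 9 for genotype averaged. With the replicate block they were 0 for genotype at 10 months, 1 for the interaction, 2 for age averaged and 1 for genotype averaged. The block ended or made no call of a clock gene. It took the clock genes at an unadjusted limma p under 0.05 with age in transgenics from 3, Per3 among them, to 1. Of the 12 libraries, 3 correlated best with their own number. With far-low values set to missing the counts over all genes were 0, 1, 1 and 2 for the same 4. Without the 3 libraries whose Mapt disagreed they were, in the order of the main counts, 56, 10, 35, 18, 77, 51 and 26; there a single library stands for the 10-month transgenics and is assumed to vary like the other groups. The library left is 10-month transgenic 1, where the pituitary markers summed to 13416 FPKM. They reached at most 53.8 FPKM in the 3-month groups and 19.5 in the 10-month controls. The part of pituitary tissue in the counts that involve this library was not tested, so these are not read as effects of genotype or age. Leaving out each library in turn gave 0 to 8, 4 to 12, 2 to 11, 3 to 10, 2 to 13, 2 to 14 and 1 to 10. The causes were not tested. The absolute depth behind these FPKM is unknown.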
